A study of Mus musculus with 12 samples.

Results

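The BCL2 family decides whether mitochondria release the proteins that start apoptosis, and 10 of its genes are described here: Bcl2, Bcl2l1, Mcl1, Bax, Bak1, Bcl2l11, Bid, Bad, Bbc3 and Pmaip1. They were chosen by symbol, as well-known members of the family. All 10 had a value in each of the 3 gene tables, which together hold 12484 genes, 11591 of them in all 3 tables. Poly(A) RNA was sequenced from 12 libraries of KPC cells, a mouse pancreatic ductal adenocarcinoma line from a tumour model that carries mutant p53. The cells carried a doxycycline-inducible shRNA, shCTR9, shCDC73 or shMYC, or the control shRNA shLuciferase, which targets luciferase, with 3 libraries in each of the 4 groups. Every group, shLuciferase included, received doxycycline at 1 µg/ml for 48 h. CTR9 and CDC73 are subunits of PAF1c, a complex that travels with elongating RNA polymerase II, and MYC is a transcription factor, and the design asks how the mRNAs of the cell change when each of the 3 proteins is depleted.

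The family falls into 3 roles. Anti-apoptotic members (BCL2, BCL-XL from Bcl2l1, and MCL1) hold the effectors BAX and BAK in check. Once active, the effectors form pores in the outer mitochondrial membrane, through which cytochrome c leaves to switch on caspases. BH3-only proteins (BIM from Bcl2l11, BID, BAD, PUMA from Bbc3, and NOXA from Pmaip1) carry stress signals to the others, either by binding the anti-apoptotic members or by activating the effectors directly. High MYC is known to sensitise cells to apoptosis, and p53, which is mutant in this model, is a known activator of Bbc3, Pmaip1 and Bax.

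The values are group comparisons of a depletion with shLuciferase, and values of single libraries are not analysed here. A level is in CPM, read counts scaled to library size, computed for each group from the mean level and the fold change, so it has no spread over libraries. An error after ± is the approximate standard error (SE) of a log2 fold change, with n = 3 libraries a group, and a gene was called changed at an adjusted p under 0.05 in the edgeR likelihood ratio test with Benjamini-Hochberg adjustment over all genes of a table. The study describes the 3 libraries of a group as biological triplicates, and the labels give only replicate numbers. The same shLuciferase libraries serve all 3 comparisons, so agreement between comparisons is not independent. The paper refers to its MYC depletion results as previous ones, and the labels give no batch. Whether the shMYC libraries were made alongside the others is thus not known, and a part of batch in the differences was not tested.

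Each shRNA lowered the mRNA of its target, with log2 fold changes of −3.42 ± 0.19 for Ctr9 after CTR9 depletion, −3.67 ± 0.26 for Cdc73 after CDC73 depletion and −1.64 ± 0.09 for Myc after MYC depletion (SE). Ductal markers were present, with 5 or 6 of 8 measured per table, and their summed level was 12127 CPM in shCTR9, 6904 CPM in shCDC73 and 9826 CPM in shMYC cells, against 6404 to 7306 CPM for shLuciferase. Krt8, Krt18 and Krt19 carried these sums, and the markers did not move together. Each sum is on the scale of its own comparison, which runs higher for MYC, and that for CDC73 lacks Krt7. The sums are thus to be read against the control of the same comparison and not against each other. After CTR9 depletion 5 were higher and 0 lower, and after CDC73 depletion 2 were higher and 2 lower (Krt19 and Cdh1). MYC depletion gave 2 higher and 3 lower. There Krt7 was at 6.98 CPM in shMYC cells, against 211 CPM in shLuciferase cells, and Sox9 fell by 2.54 on the log2 scale. Epcam and Cldn4 had no value here, nor had Krt7 in the CDC73 table. Of the fibroblast, immune, endothelial, and acinar and islet markers, at most 1 per list had a value, and no such list summed to more than 10.3 CPM. Whether the ductal markers' level had a part in the results was not tested.

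After CTR9 depletion, 6 of the 10 genes rose, 2 fell and 2 were not called, where 62.5% of all genes in that table were called, 31.3% higher and 31.2% lower. After CDC73 depletion the count was likewise 6 higher, 2 lower and 2 not called, against 60.8% of all genes called, 29.4% higher and 31.4% lower. MYC depletion gave 5 higher, 2 lower and 3 not called, against 67.1% of all genes called, 33.2% higher and 33.8% lower. With 8, 8 and 7 of 10 genes called, the 10 genes did not stand far from these backgrounds, so the number of calls says little about them and the content is in which genes moved which way. The median log2 fold change of the 10 genes was 0.36, 0.61 and 0.34 after CTR9, CDC73 and MYC depletion, and that of all genes was between −0.0177 and −0.00497.

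**Figure D1:**
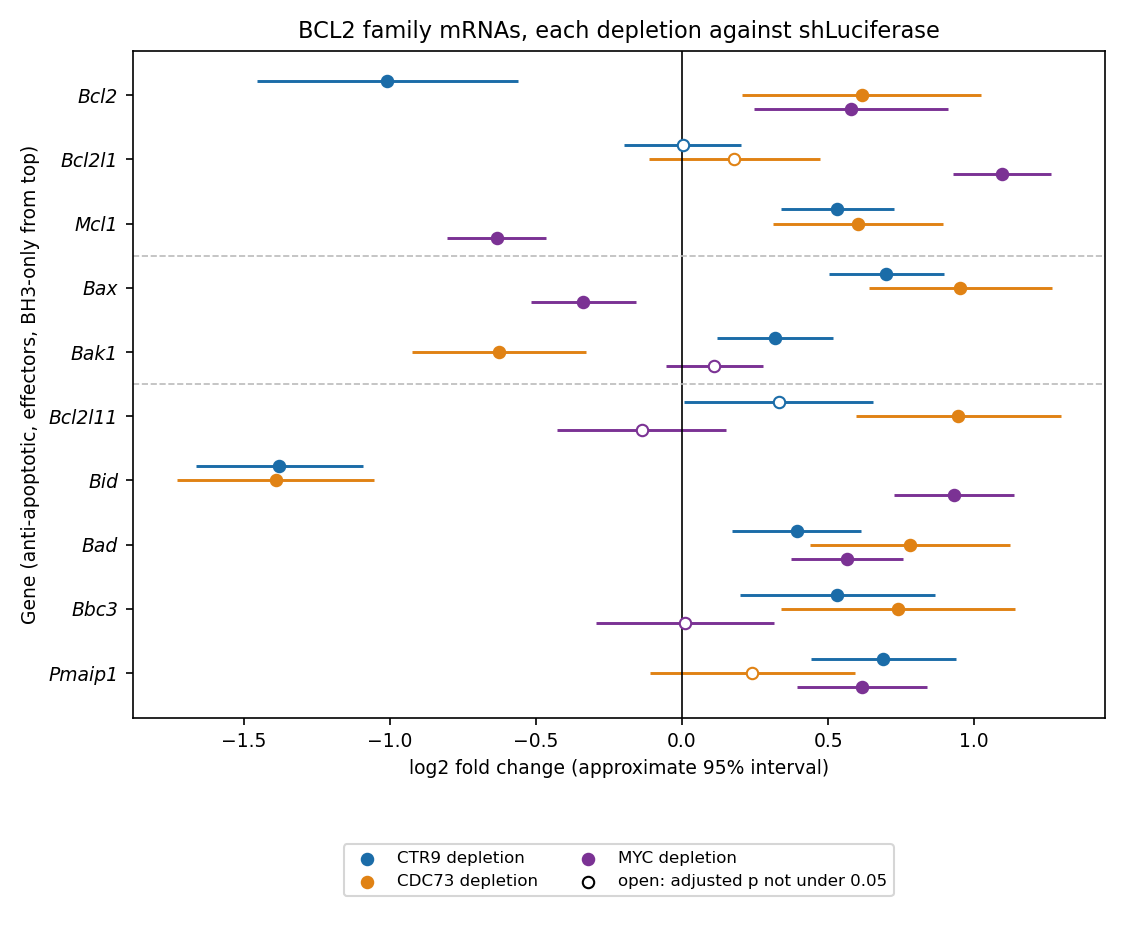
Log2 fold change against shLuciferase (horizontal axis) of the 10 genes (vertical axis, anti-apoptotic genes on top, then effectors, then BH3-only genes) after CTR9, CDC73 or MYC depletion, with approximate 95% intervals as bars and open circles where the adjusted p was not under 0.05. Bid lies at −1.38 and −1.39 for CTR9 and CDC73 and at 0.93 after MYC depletion, Mcl1 and Bax lie on opposite sides of 0 after the PAF1c subunit depletions and MYC depletion, and Bad is above 0 in all 3.

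Among the anti-apoptotic genes, Bcl2l1 rose and Mcl1 fell after MYC depletion. Bcl2l1, which encodes the long-lived guard BCL-XL, was at 355 CPM in shMYC cells, against 166 CPM in shLuciferase cells, a log2 fold change of 1.09 ± 0.09 (SE, adjusted p = 6.39e-36). It was at 167 CPM in shCTR9 and 188 CPM in shCDC73 cells and was not called in either comparison, where the approximate 95% intervals ran from −0.20 to 0.20 and from −0.11 to 0.47. Bcl2l1 therefore moved past the threshold after MYC depletion alone among the 3 comparisons, and its fold change there was larger than after CTR9 or CDC73 depletion by the tests given further on.

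Mcl1 encodes a short-lived guard that cells must keep making, and it was the most abundant of the 10 mRNAs in shLuciferase cells per kb of exons. Its level was 574 CPM in shCTR9 and 603 CPM in shCDC73 cells and 256 CPM in shMYC cells, against 398 CPM in shLuciferase cells. Mcl1 rose after CTR9 depletion (log2 fold change 0.53 ± 0.10, adjusted p = 3.42e-07) and after CDC73 depletion (0.60 ± 0.15, adjusted p = 1.52e-04), and it fell after MYC depletion (−0.63 ± 0.09, adjusted p = 8.96e-13).

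Bcl2, the founding member of the family, was scarce: 3.95 CPM in shCTR9, 12.2 CPM in shCDC73 and 11.9 CPM in shMYC cells, against 7.96 CPM in shLuciferase cells. It is the gene on which the PAF1c subunit depletions parted most. Bcl2 fell after CTR9 depletion, with a log2 fold change of −1.01 ± 0.23 (adjusted p = 2.97e-05), and rose after CDC73 depletion (0.61 ± 0.21, adjusted p = 0.00672) and MYC depletion (0.58 ± 0.17, adjusted p = 0.00120). The rises after CDC73 and MYC depletion did not pass with an F reference of 1 and 4 degrees of freedom, a stricter reading of the same statistic for 3 libraries a group.

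The effector Bax behaved like Mcl1 in direction. Its level was 276 CPM in shCTR9, 328 CPM in shCDC73 and 134 CPM in shMYC cells, against 170 CPM in shLuciferase cells. Bax rose after CTR9 depletion (log2 fold change 0.70 ± 0.10, adjusted p = 3.01e-11) and CDC73 depletion (0.95 ± 0.16, adjusted p = 1.57e-08), and fell after MYC depletion (−0.34 ± 0.09, adjusted p = 4.53e-04).

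The other effector, Bak1, whose protein BAK sits in the outer mitochondrial membrane already in healthy cells, split the PAF1c subunit depletions. It was at 219 CPM in shCTR9, 114 CPM in shCDC73 and 190 CPM in shMYC cells, against 176 CPM in shLuciferase cells. Bak1 fell after CDC73 depletion (log2 fold change −0.63 ± 0.15, adjusted p = 1.09e-04) and rose after CTR9 depletion (0.32 ± 0.10, adjusted p = 0.00359), a rise that did not pass with the F reference. After MYC depletion its log2 fold change was 0.11 ± 0.08 and was not called. Bak1 shares 614 exonic bases with Ggnbp1 on the opposite strand, which was at 2.83, 5.80 and 3.72 CPM in the shCTR9, shCDC73 and shMYC cells of its own tables with no higher level in shLuciferase cells than 4.1029 CPM, far under Bak1. Bax shares exonic bases with Gm45808, which lies on the same strand as Bax, and Bcl2 with D630008O14Rik on the opposite strand. No values of Gm45808 or D630008O14Rik are given here, and whether their reads entered the counts of Bax and Bcl2 was not tested.

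Bid gave the largest change among the 10 genes. It encodes a BH3-only protein that caspase-8 cleaves, which links death receptors to mitochondria. Its level was 14.6 CPM in shCTR9 and 14.5 CPM in shCDC73 cells and 72.5 CPM in shMYC cells, against 38.0 CPM in shLuciferase cells. After CTR9 depletion Bid fell (log2 fold change −1.38 ± 0.15, adjusted p = 6.73e-20), CDC73 depletion lowered it likewise (−1.39 ± 0.17, adjusted p = 1.02e-14), and it rose after MYC depletion (0.93 ± 0.10, adjusted p = 4.44e-18). The fall after CTR9 depletion lay at the 4.43 percentile of all log2 fold changes in its table, that after CDC73 depletion at the 5.97 percentile, and the rise after MYC depletion at the 88.2 percentile. Bid shares 628 exonic bases with Bcl2l13 on the opposite strand, and the strand setting of the read count is not given in the sources used here. Bcl2l13 had log2 fold changes of −0.08, −0.74 and 0.11 after CTR9, CDC73 and MYC depletion, of which the fall after CDC73 depletion was called, and its part in the values of Bid was not tested.

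Bcl2l11, which encodes BIM, a direct activator of the effectors, was at 17.2 CPM in shCTR9, 26.3 CPM in shCDC73 and 12.4 CPM in shMYC cells, against 13.7 CPM in shLuciferase cells. It rose after CDC73 depletion (log2 fold change 0.94 ± 0.18, adjusted p = 5.77e-07). After CTR9 depletion the value was 0.33 ± 0.17 and after MYC depletion −0.14 ± 0.15, neither of which passed the test (adjusted p = 0.0698 and 0.410).

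Bad, whose protein binds BCL-XL and BCL2 unless growth factor signalling phosphorylates it, was the only one of the 10 genes called higher in all 3 comparisons. It was at 78.6 CPM in shCTR9, 103 CPM in shCDC73 and 88.6 CPM in shMYC cells, against 59.9 CPM in shLuciferase cells. The log2 fold changes were 0.39 ± 0.11 (adjusted p = 0.00111), 0.78 ± 0.17 (adjusted p = 2.66e-05) and 0.56 ± 0.10 (adjusted p = 2.24e-08), and the first did not pass with the F reference. Bad shares 524 exonic bases with Gpr137 on the opposite strand, which fell after CTR9 depletion (−0.50) and rose after CDC73 (0.86) and MYC depletion (0.65). Whether reads of Gpr137 entered the count of Bad was not tested.

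Bbc3 and Pmaip1 are the BH3-only genes best known as p53 targets. Bbc3 was at 16.6 CPM in shCTR9, 19.2 CPM in shCDC73 and 11.6 CPM in shMYC cells, against 11.5 CPM in shLuciferase cells. It rose after CTR9 depletion (log2 fold change 0.53 ± 0.17, adjusted p = 0.00385) and CDC73 depletion (0.74 ± 0.21, adjusted p = 7.98e-04), and neither rise passed with the F reference. After MYC depletion its value was 0.01 ± 0.16, with an approximate 95% interval from −0.30 to 0.32.

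Pmaip1 was at 51.8 CPM in shCTR9, 37.9 CPM in shCDC73 and 49.2 CPM in shMYC cells, against 32.1 CPM in shLuciferase cells. It rose after CTR9 depletion (log2 fold change 0.69 ± 0.13, adjusted p = 2.57e-07) and MYC depletion (0.62 ± 0.11, adjusted p = 1.85e-07), and was not called after CDC73 depletion (0.24 ± 0.18, adjusted p = 0.240). NOXA, its protein, binds MCL1 in particular.

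**Figure D2:**
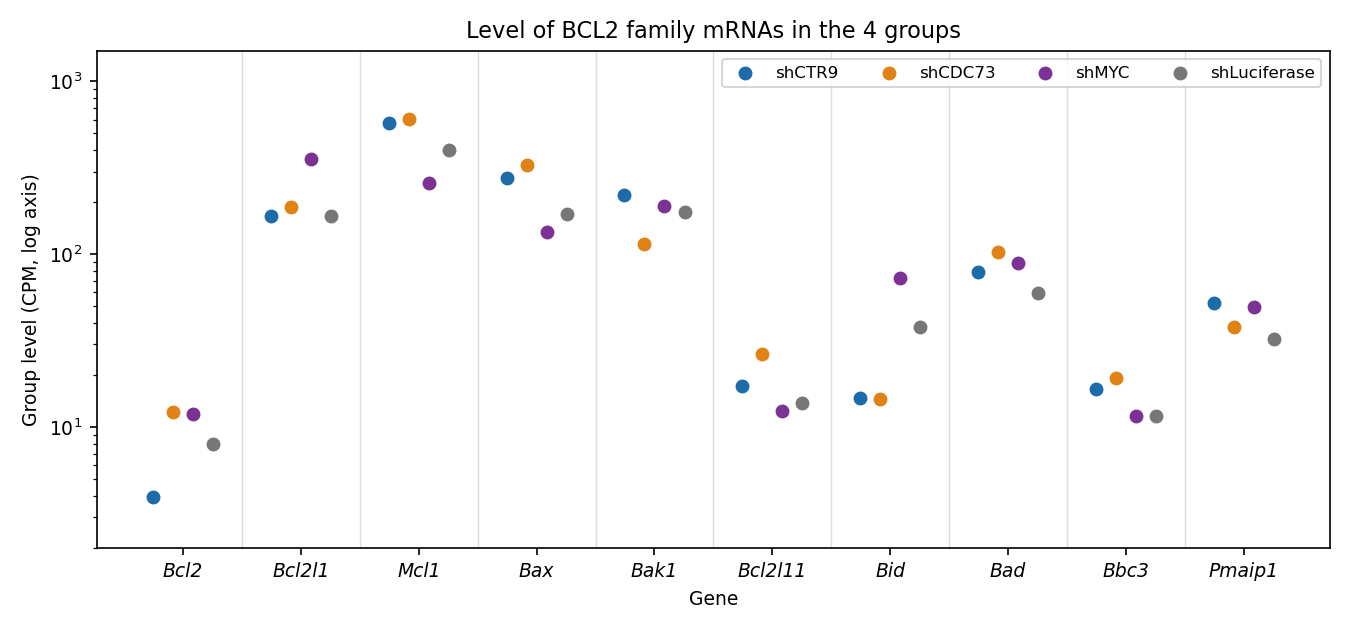
Level of each gene in CPM (vertical axis, log scale) in shCTR9, shCDC73, shMYC and shLuciferase cells, 1 point for a group and no spread over libraries. Mcl1 spans 256 to 603 CPM and Bcl2 3.95 to 12.2 CPM, and the points of Bid lie at 14.6 and 14.5 CPM after the PAF1c subunit depletions, 72.5 CPM in shMYC cells and 38.0 CPM in shLuciferase cells.

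Levels were compared between genes as CPM per kb of exons, with the summed exonic length of each gene as the divisor. In shLuciferase cells the order of these levels was Mcl1 (116), Bax (108), Bak1 (73.0), Bcl2l1 (36.3), Bad (23.4), Pmaip1 (11.8), Bid (10.7), Bbc3 (5.42), Bcl2l11 (1.70) and Bcl2 (0.869). The range was wide, and with no spread over libraries it cannot be said which neighbours in it differ. In shMYC cells Bax (85.2), Bak1 (78.8), Bcl2l1 (77.4) and Mcl1 (74.9) lay close together, whereas in shCTR9 cells Bax (175) and Mcl1 (168) stood above Bak1 (91.0) and Bcl2l1 (36.3).

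Summed over the members of each role among the 10 genes, the anti-apoptotic genes were at 205 CPM per kb in shCTR9, 219 in shCDC73 and 154 in shMYC cells, against 153 in shLuciferase cells. The sum in shMYC cells was thus near that of the control, but its makeup was not: Bcl2l1 made up 50.4% of it and Mcl1 48.8%, against 23.6% and 75.8% in shLuciferase cells. In shCTR9 and shCDC73 cells Mcl1 held 82.1% and 80.6%. Bcl2 made up at most 0.844% of the anti-apoptotic sum in the 4 groups. These sums and shares are descriptions with no test.

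The effector sum was 266 CPM per kb in shCTR9, 256 in shCDC73 and 164 in shMYC cells, against 181 in shLuciferase cells. It thus stood above the control after the PAF1c subunit depletions. In shCDC73 cells only Bax was higher (208, against 108), and Bak1 was lower (47.3, against 73.0). In shCTR9 cells Bax (175) and Bak1 (91.0) were each higher. The BH3-only sum was 63.8, 70.5 and 80.1 in shCTR9, shCDC73 and shMYC cells, against 53.0 in shLuciferase cells. As a share of the sum over the 10 genes, which leaves out relatives such as Bmf, Bcl2l2 and Bok, BH3-only mRNA was 11.9%, 12.9% and 20.1% in shCTR9, shCDC73 and shMYC cells, against 13.7% in shLuciferase cells.

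**Figure D3:**
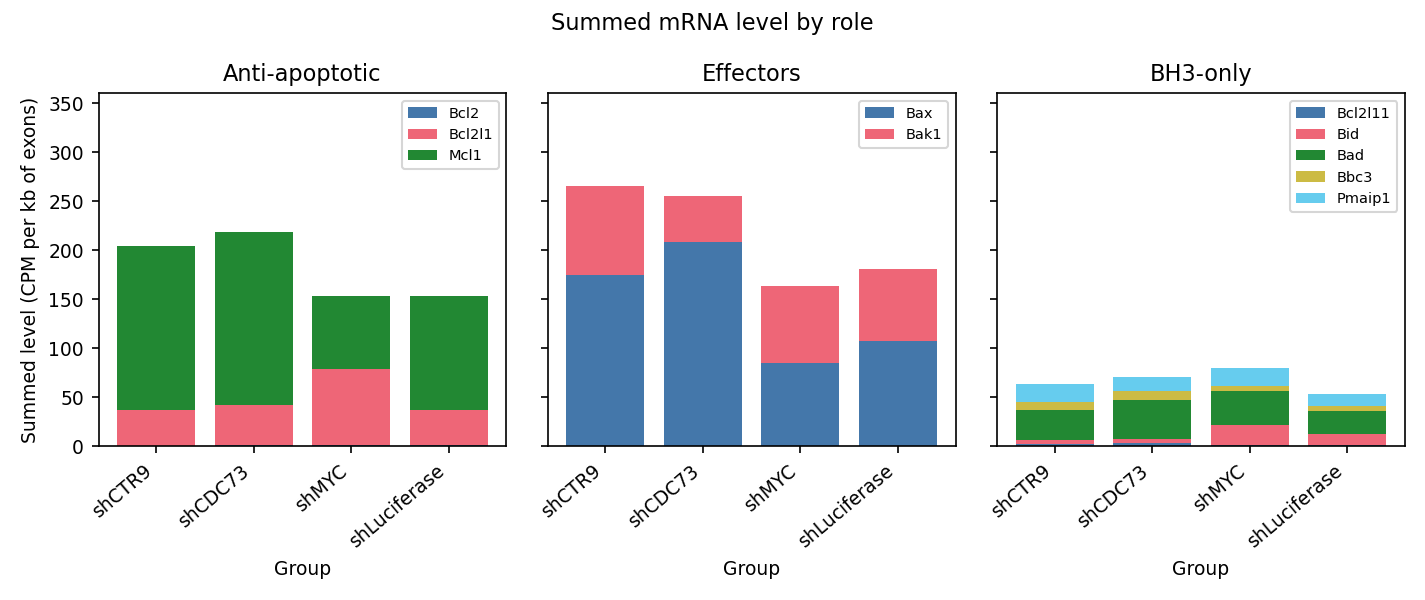
Summed mRNA level in CPM per kb of exons (vertical axis) of the anti-apoptotic, effector and BH3-only genes in shCTR9, shCDC73, shMYC and shLuciferase cells, with the genes stacked within a bar. The anti-apoptotic bars of shMYC and shLuciferase cells reach 154 and 153, with Bcl2l1 at 50.4% of the first and 23.6% of the second.

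Whether a gene responded differently to 2 depletions was tested on the difference of its log2 fold changes, with an approximate z. The controls are shared and their level cancels in the difference. Between CTR9 and CDC73 depletion, 3 of the 10 genes differed, 1 higher and 2 lower after CTR9 depletion, where 34.5% of all genes differed, 19.4% higher and 15.1% lower. Bcl2 was lower after CTR9 depletion by a difference of −1.62 (95% interval −2.23 to −1.02, adjusted p = 2.24e-06), Bak1 was higher by 0.95 (0.59 to 1.303, adjusted p = 3.18e-06), and Bcl2l11 was lower by −0.61 (−1.09 to −0.14, adjusted p = 0.0365). None of the 3 passed with a t reference of 4 degrees of freedom, under which no gene of all 11806 tested did, although 3274 genes had an unadjusted p under 0.05, Bak1 and Bcl2 among them. For Bid the difference was 0.01, with an interval from −0.43 to 0.46.

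Between CTR9 and MYC depletion, 6 of the 10 genes differed, 3 in each direction, where 58.7% of all genes did, 30.8% higher and 27.9% lower after CTR9 depletion. Bid had the largest difference among the 10 genes, −2.31 (−2.66 to −1.96, adjusted p = 4.67e-36). Bcl2 (−1.59, adjusted p = 1.05e-07) and Bcl2l1 (−1.09, adjusted p = 3.70e-15) were also lower after CTR9 than after MYC depletion. Mcl1 (1.16, adjusted p = 9.58e-18), Bax (1.04, adjusted p = 2.50e-13) and Bbc3 (0.52, adjusted p = 0.0419) were higher, and the last did not pass with the t reference.

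Between CDC73 and MYC depletion, 7 of the 10 genes differed, 4 higher and 3 lower after CDC73 depletion, where 59.8% of all genes differed, 29.3% higher and 30.5% lower. Bid (−2.32, adjusted p = 5.71e-29), Bcl2l1 (−0.92, adjusted p = 4.51e-07) and Bak1 (−0.74, adjusted p = 6.69e-05) were lower after CDC73 than after MYC depletion. Bax (1.29, adjusted p = 2.05e-11), Mcl1 (1.24, adjusted p = 5.43e-12), Bcl2l11 (1.08, adjusted p = 1.07e-05) and Bbc3 (0.73, adjusted p = 0.00931) were higher, and Bbc3 did not pass with the t reference. Bad and Pmaip1 passed in none of the 3 tests of a difference. The intervals of Bad ran from −0.79 to 0.02, from −0.46 to 0.12 and from −0.18 to 0.61 for CTR9 minus CDC73, CTR9 minus MYC and CDC73 minus MYC on the log2 scale, and differences within these limits cannot be told from none.

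**Figure D4:**
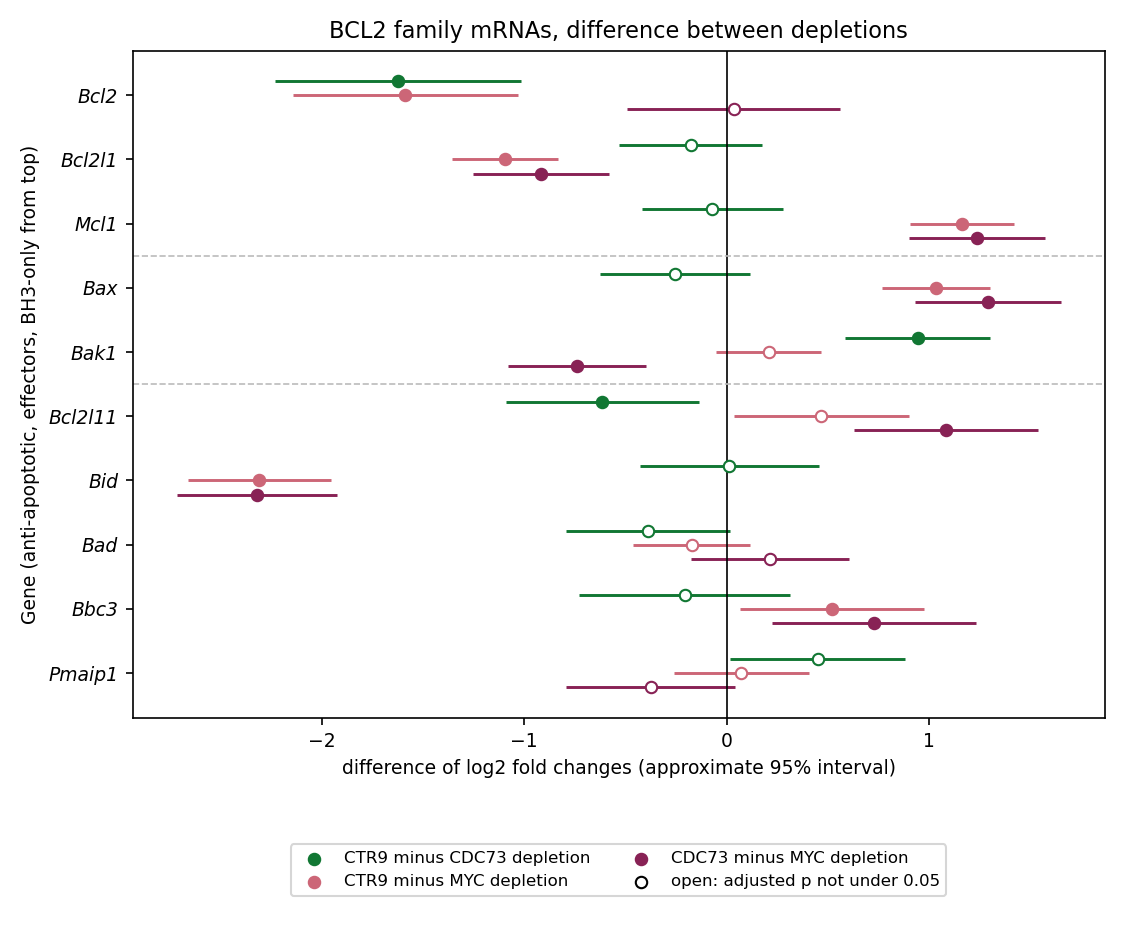
Difference between the log2 fold changes of 2 depletions (horizontal axis) for the 10 genes (vertical axis, anti-apoptotic, effector and BH3-only genes from the top), with approximate 95% intervals as bars and open circles where the adjusted p was not under 0.05. Bid lies at −2.31 and −2.32 against MYC depletion and at 0.01 between CTR9 and CDC73 depletion, and Bcl2 at −1.62 between CTR9 and CDC73 depletion.

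The sequences shown next are from around start sites of the genes whose directions differed most between the depletions. They come from RefSeq on GRCm38.p6, where promoter windows of 250 bases before to 50 bases after a start were found for 9 of the 10 genes, 15 windows in all. GGGCGG, the GC box that SP1 family factors bind, is marked by capitals in either orientation. It occurs 3 times in the 100 bases upstream of the Bcl2 start (chr1:106714291-106714390, minus strand). In the Bid window 3 copies start 66, 50 and 33 bases before a start at which the table begins a transcript, and the first and last are shown (chr6:120916873-120916902 and chr6:120916840-120916869, minus strand).
Bid first: tggccagtcggaGGGCGGagcatccggagg
Bid last: gggctatcacagGGGCGGggctcccgggcg
Bcl2: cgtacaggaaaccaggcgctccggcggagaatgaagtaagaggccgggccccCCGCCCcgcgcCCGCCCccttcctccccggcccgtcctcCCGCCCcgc

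GGGCGG on either strand was in 10 of the 15 windows, from 7 genes, and in 35.7% of all 32851 windows and 64.1% of those of genes in all 3 tables. CACGTG, the palindromic E-box that MYC with its partner MAX can bind, was in windows of Bax and Bbc3 only, 2 of 15, against 7.15% of all windows and 10.2% of those of genes in all 3 tables. Its relative CACGCG on either strand was in 4 windows, of Bbc3, Bcl2l1 and Bcl2l11, against 9.27% and 17.6%. The 3 E-boxes are shown because Bax fell after MYC depletion and Bbc3 did not pass the test there. Their capitals mark the motif, which starts 9 bases before and 36 bases after a start of Bax (chr7:45466890-45466919 and chr7:45466849-45466875, minus strand) and 64 bases before a start of Bbc3 (chr7:16310355-16310384, plus strand).
Bax first: agcgatgatgatCACGTGactagtcctgcg
Bax second: ttgcggggcaccCACGTGagggccgca
Bbc3: gcggggcgggcgCACGTGgcggcgtcgagg
A match to these letters is a description and says nothing of binding in these cells.

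Gene length was set beside the fold changes because PAF1c acts during elongation. Over all genes with a length, the median log2 fold change in 5 bins of equal size from the shortest to the longest was 0.31, 0.16, 0.01, −0.13 and −0.33 after CTR9 depletion. The same medians were 0.39, 0.11, −0.10, −0.23 and −0.27 after CDC73 depletion, while after MYC depletion they stayed between −0.07 and 0.06. The short genes Bax (5.21 kb), Mcl1 (6.24 kb), Bad (10.0 kb) and Bbc3 (9.94 kb) rose after both PAF1c subunit depletions, and the longest, Bcl2 (176 kb), fell after CTR9 depletion. Pmaip1 (6.955 kb), also short, rose after CTR9 depletion (0.69) and was not called after CDC73 depletion (0.24). Others lay off the medians of their bin. Bid, in the middle bin, was at −1.38 and −1.39 where its bin had medians of 0.01 and −0.10, Bak1 (8.82 kb) fell after CDC73 depletion where its bin had a median of 0.11, and Bcl2 and Bcl2l11 (36.5 kb) rose after CDC73 depletion where their bins had medians of −0.27 and −0.23. Bcl2l1 (75.1 kb), in the longest bin with Bcl2, was at 0.00 and 0.18, not called, where the bin had −0.33 and −0.27, and Bcl2l11 was at 0.33, not called, after CTR9 depletion where its bin had −0.13. Lengths are RefSeq spans. Bcl2l1 has narrower bounds in GENCODE (chr2:152780668-152831728), which would put it under the longest bin, so its bin depends on the annotation. The part of gene length in these values was not tested.

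**Figure D5:**
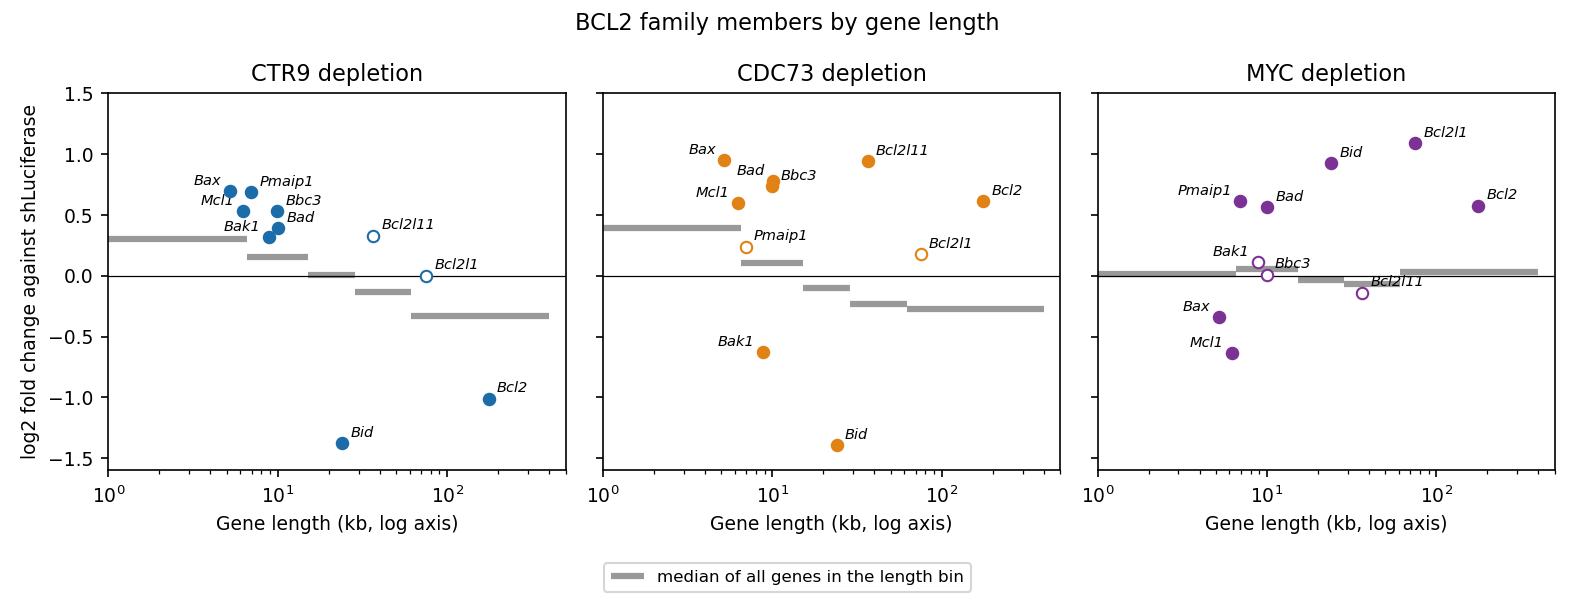
Log2 fold change against shLuciferase (vertical axis) of the 10 genes by gene length in kb (horizontal axis, log scale) after CTR9, CDC73 and MYC depletion, with grey bars at the median of all genes in each of 5 length bins, drawn from 1 to 400 kb, and open circles for genes not called. The grey bars step down from 0.31 to −0.33 after CTR9 depletion and from 0.39 to −0.27 in the CDC73 panel, and Bid lies far under its bar in both.

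Of 52 other apoptosis genes in 6 lists, 42 had a value in all 3 tables. After CTR9 depletion 12 were higher, 8 lower and 22 not called, after CDC73 depletion 8, 12 and 22, and after MYC depletion 18, 12 and 12. That is 47.6%, 47.6% and 71.4% called, against the 62.5%, 60.8% and 67.1% of all genes given above.

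The other members of the BCL2 family, 8 of 15 measured, had 4 higher and 0 lower after CTR9 depletion, 2 higher and 2 lower after CDC73 depletion, and 5 higher and 1 lower after MYC depletion. Their median log2 fold changes were 0.24, 0.33 and 0.78. Bmf, a BH3-only gene tied to loss of cell attachment, rose after CTR9 (1.27) and CDC73 depletion (2.77) and fell after MYC depletion (−0.96), the same order of signs as Mcl1 and Bax. Bcl2l2, which encodes the anti-apoptotic BCL-W, rose after MYC depletion (1.54) and was not called after CTR9 (−0.25) or CDC73 depletion (−0.26), as was the case for Bcl2l1. Bcl2l15 rose in all 3 comparisons, by 0.73, 1.42 and 2.43, and Bok, an effector relative, was at 0.49, −0.59 and 0.46, each called, with the signs of Bak1 after CTR9 and CDC73 depletion.

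Downstream of the mitochondria, the apoptosome and caspase genes (7 of 8 measured) had 2 higher and 0 lower after CTR9 depletion, 2 higher and 1 lower after CDC73 depletion and 3 higher and 2 lower after MYC depletion. Casp6, an executioner caspase, rose in each comparison (0.41, 1.48 and 1.05). Casp8, whose product cleaves BID, rose after MYC depletion (1.61) and was at 0.10 and 0.17, not called, after CTR9 and CDC73 depletion. Cycs, which encodes somatic cytochrome c, rose after CTR9 depletion (0.86) and was not called after the others. The 4 genes of proteins released from mitochondria had 1 higher and 1 lower after CTR9 depletion, and the same after CDC73 depletion. After MYC depletion 0 were higher and 3 lower, and Endog, a mitochondrial nuclease, fell by 3.83 on the log2 scale. Its level there was 0.654 CPM, against 9.32 CPM in shLuciferase cells, so the size of the fall rests on a very low value. Endog rose after CTR9 depletion (0.91) and was not called after CDC73 depletion (0.20).

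The 5 inhibitors of apoptosis had 1 higher and 2 lower after CTR9 depletion, 2 higher and 3 lower once CDC73 was depleted, and 2 of each after MYC depletion. Xiap, which encodes a direct caspase inhibitor, had the signs of Bid, at −0.98 and −1.26 after CTR9 and CDC73 depletion and 0.27 after MYC depletion, each called. Birc3 had the same signs (−0.63, −0.92 and 0.73) and Birc5 the opposite ones (0.53, 0.57 and −0.49), each called. Birc2 and Birc6 were not called after CTR9 depletion, and after CDC73 depletion Birc2 rose (0.82) and Birc6 fell (−0.57). The death receptor genes (6 of 7 measured) had 2 higher and 2 lower after CTR9 depletion, 0 higher and 3 lower after CDC73 depletion and 5 higher and 0 lower after MYC depletion. Fadd, the adaptor that recruits caspase-8, fell after CTR9 (−0.62) and CDC73 depletion (−0.88), and Cflar, which encodes the caspase-8 regulator FLIP, rose after MYC depletion (1.82).

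The upstream regulators (12 of 13 measured) had 2 higher and 3 lower after CTR9 depletion, 1 higher and 2 lower after CDC73 depletion and 3 higher and 4 lower after MYC depletion. Ddit3, which encodes the stress factor CHOP, rose after MYC depletion (1.76) and was not called after CTR9 (0.03) or CDC73 depletion (0.21). Vdac1, a channel of the outer mitochondrial membrane, fell after CDC73 (−1.09) and MYC depletion (−0.64), and Vdac2, to which BAK is known to bind, was higher after CTR9 (0.47) and MYC depletion (0.40) and lower after CDC73 depletion (−0.48).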

How the data were processed

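Poly(A) RNA of 12 KPC libraries, 3 per shRNA, was compared by the authors. Per the labels and methods, reads were mapped to mm10 with Bowtie 2 (version 2.3.4.1), counted per gene with featureCounts and tested with edgeR after genes under 5 reads were removed. Bowtie 2 does not split reads over introns, which can lower the counts of genes with short exons. The annotation and strand setting of the count are not given in the sources used here. The log2 fold change and mean log2 CPM of each gene were taken as deposited by the authors. The authors' p-values come from a likelihood ratio test, with Benjamini-Hochberg adjustment over the 11982, 12128 and 12100 genes of the CTR9, CDC73 and MYC tables. The likelihood ratio itself is a score in the deposited tables. The tables hold group comparisons only, and no count test could be run on them. The p-values were checked against a chi-square with 1 degree of freedom (differences up to 6.61e-15) and the adjusted ones against a recomputed adjustment (up to 8.60e-15).

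From these columns the SE was computed as the absolute log2 fold change over the root of the likelihood ratio (median over all genes 0.139, 0.175 and 0.122 for CTR9, CDC73 and MYC). The total counts of the libraries are not analysed here, so precision is given by the SE. Group levels were derived from mean log2 CPM and fold change. Control levels from the CTR9 and MYC tables had a median ratio of 0.908, with a robust spread of 0.00833 on the log2 scale, so levels of the 4 groups were set on 1 scale: the mean control level of the CTR9 and CDC73 tables times each fold. Differences between depletions used an approximate z with a normal reference, adjusted over the genes of both tables. Leaving out the shared controls' covariance errs to larger p, and taking SEs from 3 libraries as known errs to smaller p. Coordinates, gene lengths and promoters are from RefSeq (GRCm38.p6). Exonic lengths, over all transcripts of a gene, and exonic bases shared between genes are from GENCODE. Computations used scipy 1.17.1, pandas 2.3.3, numpy 2.4.6 and, for plots, matplotlib 3.10.9 under Python 3.11.15, and were tested on simulated data.

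The members and gene lists were chosen with earlier results of these data known. Named were all 10 members, the shRNA targets and, for each member called in all 3 comparisons, the gene with the nearest pattern. Genes of the other lists were drawn from the 3 per list and comparison with the smallest adjusted p. Only a part of those are named, some with their values in the other comparisons, so they are a selection. Alternatives were an F or t reference with 4 denominator degrees of freedom, a minimum of 1 CPM, Benjamini-Yekutieli adjustment, a minimum absolute log2 fold change of 0.5, and centring at the median.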

Additional observations from a re-analysis of the deposited data

How the results depend on the processing

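With an F reference of 1 and 4 degrees of freedom, 5 of the 10 genes were called after CTR9 depletion in place of 8, with Bak1, Bad and Bbc3 lost, and 38.7% of all genes were called there. Over the 3 comparisons this reference ended 6 of the calls, the others being Bcl2 and Bbc3 after CDC73 depletion and Bcl2 after MYC depletion. With a t reference of 4 degrees of freedom, 0 of the 10 genes differed between CTR9 and CDC73 depletion in place of 3, and it ended 5 of the calls of a difference in all. Benjamini-Yekutieli adjustment ended the call of Bcl2 after CDC73 depletion, and a minimum absolute log2 fold change of 0.5 left out Bak1 and Bad after CTR9 depletion and Bax after MYC depletion. A minimum of 1 CPM and centring at the median changed the call of none of the 60 values and differences, and no alternative reversed a direction. No paired analysis was possible because the columns hold group comparisons and carry no replicate numbers. For the same reason no library could be left out, and whether 1 library decides a value is not known. Bcl2 is the scarcest member, with the widest SE among the members' fold changes (0.228 after CTR9 depletion), so its values are the least precise. Levels of groups and sums by role have no error.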

Other observations

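For the 5 genes called in all 3 comparisons, the gene with the most similar 3 log2 fold changes was looked up among 11359 others by Euclidean distance. It was Rrad for Bcl2 (distance 0.136), Zbtb39 for Mcl1 (0.0239), Rpl37a for Bax (0.0766), Krcc1 for Bid (0.128) and 9430037G07Rik for Bad (0.0723). Krcc1 had log2 fold changes of −1.42, −1.36 and 1.05 after CTR9, CDC73 and MYC depletion, against −1.38, −1.39 and 0.93 for Bid. The comparisons share the shLuciferase libraries, so these distances describe 3 values each.

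Of the 6 values of one depletion's target under another depletion, 3 were called. Of all genes, 62.5%, 60.8% and 67.1% were called after CTR9, CDC73 and MYC depletion, so this count says little about the targets. Ctr9 rose after CDC73 depletion (log2 fold change 0.89 ± 0.16, adjusted p = 1.33e-07 in the edgeR test) and fell after MYC depletion (−0.90 ± 0.12, adjusted p = 9.88e-13). Cdc73 fell after MYC depletion (−0.54 ± 0.11, adjusted p = 2.75e-06). CTR9 depletion moved neither Cdc73 (0.07 ± 0.13) nor Myc (−0.13 ± 0.10) past the threshold, and Myc was not called after CDC73 depletion (0.28 ± 0.15).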
